A study of Mus musculus with 6 samples.

Results

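The 10 genes described here report on FGF-ERK signalling and were followed in mouse embryonic stem (ES) cells whose genotype label says that they lack every G1 cyclin. They were chosen by name, with earlier results of these data known. All 10 were found among the 24043 gene rows of an RNA-seq table: the PEA3 factors Etv1, Etv4 and Etv5, the ERK phosphatases Dusp4 and Dusp6, the Sprouty genes Spry1, Spry2 and Spry4, and the SPRED genes Spred1 and Spred2. The table held 3 libraries labelled Q-KO, from ES cells without any G1 cyclin, and 3 libraries from wild-type ES cells. Cells of both groups were grown with leukaemia inhibitory factor (LIF), with PD184352, which inhibits MEK, and with CHIR99021, which inhibits GSK3, so the wild-type cells were MEK-inhibited too. The labels give no parental line, clone or sex for either group. Values are FPKM, a fragment count scaled to transcript length and library size, and can be compared between genes because they are divided by length.

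ERK is the last kinase of a cascade that runs from receptors such as those for FGF through RAS, RAF and MEK. Active ERK switches on the genes of the PEA3 factors, which are ETS-family transcription factors. It also switches on its own brakes: dual-specificity phosphatases that dephosphorylate ERK, Sprouty proteins that dampen signalling between receptor and RAF, and SPRED proteins that restrain the activation of RAS and RAF. In ES cells FGF4 feeds this cascade and moves cells toward differentiation, and MEK inhibitors are used to hold them in the naive state.

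The targeted genes were examined first. Of the 5 G1 cyclin genes, Ccnd1, Ccnd3 and Ccne2 fell (limma adjusted p of 0.0124, 0.0101 and 0.0182), whereas Ccne1 was at 65.3 to 87.3 FPKM in Q-KO and 37.5 to 55.9 FPKM in wild-type libraries and Ccnd2 was under 1 FPKM in every library. Exons outside a deleted part still count toward such values. Because Ccne1 ran against the label, Q-KO below means the libraries labelled Q-KO. Pairs of libraries correlated over the genes tested (log2(FPKM + 1)) with a Pearson's r of 0.964 to 0.979 within Q-KO, 0.942 to 0.973 within wild-type and 0.924 to 0.955 between groups. The depth of the libraries is not given in the sources used here, but ratios of values under 0.3 FPKM put it within 1 to 1.22 times that of wild-type replicate 1. Pluripotency markers summed to 5420 to 9720 FPKM in Q-KO and 5480 to 6670 FPKM in wild-type libraries, with none of the 8 past the test. Most of that sum was Dppa5a, at 3680 to 7780 FPKM in Q-KO and 3740 to 5020 FPKM in wild-type libraries. Zfp42 was at 363 FPKM in wild-type replicate 3, 177 FPKM in Q-KO replicate 1 and 74.7 to 78.9 FPKM in the other libraries. Markers of primitive endoderm summed to 1.86 to 2.78 FPKM in Q-KO and 1.26 to 2.2 FPKM in wild-type libraries. Only Dab2 among them separated the groups, at 0.294 to 1.24 FPKM in Q-KO and 0.0534 to 0.123 FPKM in wild-type libraries, too low to be tested. Markers of primed epiblast summed to 15.7 to 27.9 FPKM in Q-KO and 12.2 to 31.4 FPKM in wild-type libraries. Of these, Otx2 was at 18 FPKM in wild-type replicate 3 and at 0.779 to 3.82 FPKM in the other libraries. Sox3, too low to be tested, was at 1.09 to 1.9 FPKM in Q-KO and 0.0371 to 0.691 FPKM in wild-type libraries. The groups overlapped for the other epiblast markers. Trophoblast markers summed to 42 to 49 FPKM in Q-KO and 23.4 to 58.7 FPKM in wild-type libraries. Of the 4 tested trophoblast markers, 2 rose, both transcription factor genes. Eomes was at 5.82, 5.85 and 5.25 FPKM in Q-KO, against 1.23, 1.06 and 1.17 FPKM in wild-type libraries (limma adjusted p = 0.00398). Tfap2c averaged 34.2 ± 5.23 FPKM in Q-KO and 17.2 ± 1.67 FPKM in wild-type libraries (SD, n = 3 each, limma adjusted p = 0.0194). The keratin genes Krt8 and Krt18 had lower means in Q-KO libraries but did not pass, and Krt8 stood at 30.7 FPKM in wild-type replicate 3. Cdx2, a defining trophoblast marker under the level for testing, was at 0.393 to 0.805 FPKM in Q-KO and 0.0178 to 0.0489 FPKM in wild-type libraries. Some libraries stood apart. The 5 Y-linked genes summed to 43.2 to 70.5 FPKM in Q-KO libraries and to 98.6 FPKM in wild-type replicate 3, and were listed at 0 in wild-type replicates 1 and 2. The labels do not say whether all libraries come from 1 line, and a difference between lines cannot be told apart from the genotype in any comparison of the groups. In wild-type replicate 3 the genes of chromosomes 8 and 11 lay 0.18 and 0.17 (median, log2 scale) above their mean over the libraries. Q-KO replicate 1 held more fibroblast collagen transcript than the others, described with Spry4.

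Promoter sequence from RefSeq (build GRCm38.p6) was matched for 7 of the 10 genes, in 9 windows. Etv4, Dusp4 and Spry4 had no entry. The 250 bases before each transcription start were searched on both strands for AGGAAG and CCGGAAG, 2 forms of the core that ETS factors bind and that exclude each other at any one core, for the AP-1 site TGANTCA and for the cyclic AMP response half-site TGACGT. The shorter ETS form was found in 3 of the 9 windows, against 29.5% of all 32851 windows. The longer ETS form and the AP-1 site were found in 0 of the 9, against 6.9% and 6.7% of all windows, and the half-site in 1, against 6.5%. A match is a description of letters and not of binding. The windows of Dusp6 (chr10:99262981-99263230, plus strand) and Spred2 (chr11:19924192-19924441, plus strand) are shown because they hold matches, which are in capitals, and that of Spry2 (chr14:105896820-105897069, minus strand) because Spry2 had the largest change after Etv4 among the tested members and held no match. Each is written 5′ to 3′.
Dusp6: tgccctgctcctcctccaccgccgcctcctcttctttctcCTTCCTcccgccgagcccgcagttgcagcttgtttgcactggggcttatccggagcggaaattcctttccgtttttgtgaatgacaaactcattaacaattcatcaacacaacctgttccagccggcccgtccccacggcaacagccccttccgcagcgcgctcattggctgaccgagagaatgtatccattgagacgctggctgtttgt
Spred2: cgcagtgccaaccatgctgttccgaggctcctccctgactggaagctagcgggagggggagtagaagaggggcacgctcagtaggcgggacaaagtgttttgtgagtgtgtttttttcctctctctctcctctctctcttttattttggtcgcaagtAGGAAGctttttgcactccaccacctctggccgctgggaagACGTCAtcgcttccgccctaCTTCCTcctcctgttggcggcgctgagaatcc
Spry2: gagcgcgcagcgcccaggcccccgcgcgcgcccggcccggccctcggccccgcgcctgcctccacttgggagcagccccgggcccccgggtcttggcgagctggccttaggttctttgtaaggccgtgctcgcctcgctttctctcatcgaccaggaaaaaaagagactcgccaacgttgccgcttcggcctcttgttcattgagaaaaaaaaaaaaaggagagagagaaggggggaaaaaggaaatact
The Spred2 window held the shorter ETS form on each strand and the half-site on the minus strand, and the Dusp6 window held the ETS form on the minus strand. The remaining window with it was 1 of the 2 windows of Etv1, 8 bases before the start.

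Of the 10 genes, 8 had a mean of at least 1 FPKM and were tested, and 1 of these 8, Etv4, rose in Q-KO cells while none fell. Over all 11573 genes tested, 4.06% passed the same threshold (limma, adjusted p under 0.05), 3.04% as rises and 1.02% as falls. Rises made up 74.9% of these calls, a share that depended on scaling and was 54% after quantile normalization, 61.8% after median-of-ratios scaling and 62.7% after chromosome medians were removed. The median log2 change of the 8 tested genes was 0.3, against 0.07 over all genes tested. Only 1 of the 8 had group ranges that did not overlap, and 27.7% of all genes tested did. The unadjusted limma p was under 0.05 for 2 of the 8, and for 2493 of the 11573 genes tested.

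**Figure D1:**
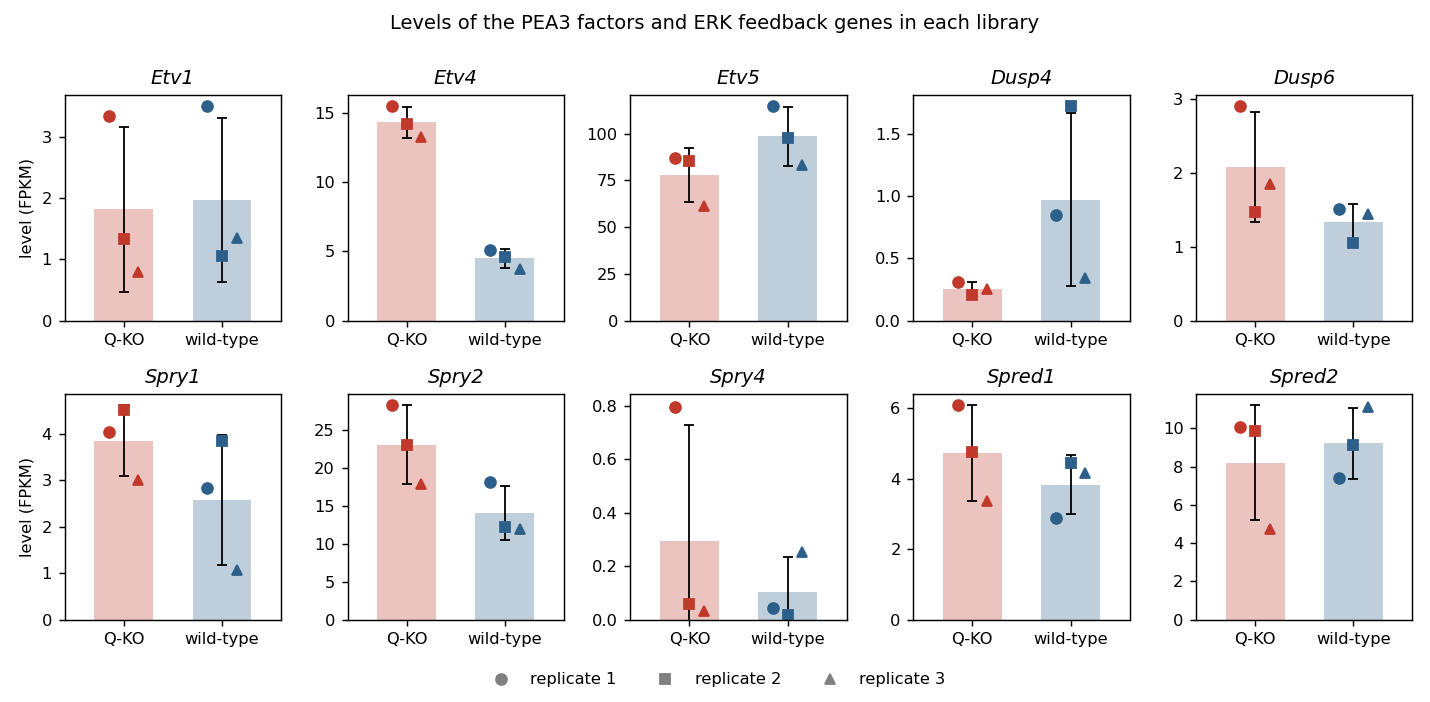
FPKM of each of the 10 genes (vertical axes, from 0) in Q-KO libraries (red, left) and wild-type libraries (blue, right). Symbols are replicates, bars are means and error bars SD (n = 3). Etv4 stands at 13.3 to 15.5 FPKM in Q-KO and 3.75 to 5.12 FPKM in wild-type libraries, whereas the groups overlap for every other gene shown but Dusp4.

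Of the PEA3 factors, Etv4 passed the test, and Etv1 and Etv5 did not. Etv4, which encodes the factor that gave the subfamily its name, was at 15.5, 14.2 and 13.3 FPKM in Q-KO replicates 1, 2 and 3, against 5.12, 4.63 and 3.75 FPKM in wild-type libraries 1, 2 and 3. Every Q-KO library was above every wild-type library. Its mean was 14.3 ± 1.14 FPKM in Q-KO and 4.5 ± 0.692 FPKM in wild-type libraries (SD, n = 3 each), 3.19 times as high. On the scale of log2(FPKM + 1) it rose by 1.48 (SE 0.15, limma adjusted p = 0.00464) and ranked 27 of 11573 genes by p. Without Q-KO replicate 2 the change was 1.49 but missed the threshold (limma adjusted p = 0.0564), and only 28 genes (0.242%) passed in that fit. Without Q-KO replicate 1 and wild-type replicate 3 together, a choice made after the data were seen, it was 1.33 (adjusted p = 0.0172). Etv4 lies on chromosome 11, and with chromosome medians removed its rise was 1.46 (limma adjusted p = 0.0125). The trophoblast markers Eomes and Tfap2c were also higher in every Q-KO library. The tested trophoblast markers Krt8 and Krt18 went the other way without passing (log2 change -1.17 and -0.52). The part of these markers in the Etv4 value was not tested.

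Etv5, the most abundant of the 10 genes in both groups, had a lower mean in Q-KO cells without passing the test. It was at 87.1, 85.6 and 61.4 FPKM in Q-KO replicates 1, 2 and 3 and at 115, 97.7 and 83.4 FPKM in wild-type libraries 1, 2 and 3. The groups overlapped, since Q-KO replicates 1 and 2 were above wild-type replicate 3. Its log2 change was -0.34 (SE 0.18, 95% interval -0.76 to 0.08, limma adjusted p = 0.329). Etv1 was low and varied more within the groups than between them. It was at 3.34, 1.33 and 0.788 FPKM in Q-KO and at 3.5, 1.05 and 1.34 FPKM in wild-type libraries 1, 2 and 3, with a log2 change of -0.09 (SE 0.4, adjusted p = 0.924 from limma). In both groups replicate 1 was the highest library for Etv1. The sign of this change turned in some alternatives, such as 0.26 without wild-type replicate 1.

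The make-up of the PEA3 pool separated the groups and its size did not. Etv4 made up 14.6%, 14.1% and 17.6% of the summed Etv1, Etv4 and Etv5 level in Q-KO replicates 1, 2 and 3, against 4.14%, 4.48% and 4.24% in wild-type replicates 1, 2 and 3. The summed level itself was 106, 101 and 75.5 FPKM in Q-KO and 124, 103 and 88.5 FPKM in wild-type libraries, with overlapping groups. Etv5 exceeded Etv4 by 5.61, 6.02 and 4.63 times in Q-KO libraries, against 22.5, 21.1 and 22.2 times in wild-type libraries. This ratio does not depend on the scaling of a library. The mean log2 ratio of Etv4 to Etv5 was -2.43 ± 0.2 in Q-KO and -4.45 ± 0.05 in wild-type libraries (SD, n = 3 each). The difference of 2.02 had a two-sided exact permutation p of 0.1, the smallest that 3 libraries against 3 allow (adjusted p = 0.1 over the 2 ratios examined, both chosen after the values were seen). Etv4 alone already separated the groups, so its share of the pool and the p of this ratio are no independent evidence.

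**Figure D2:**
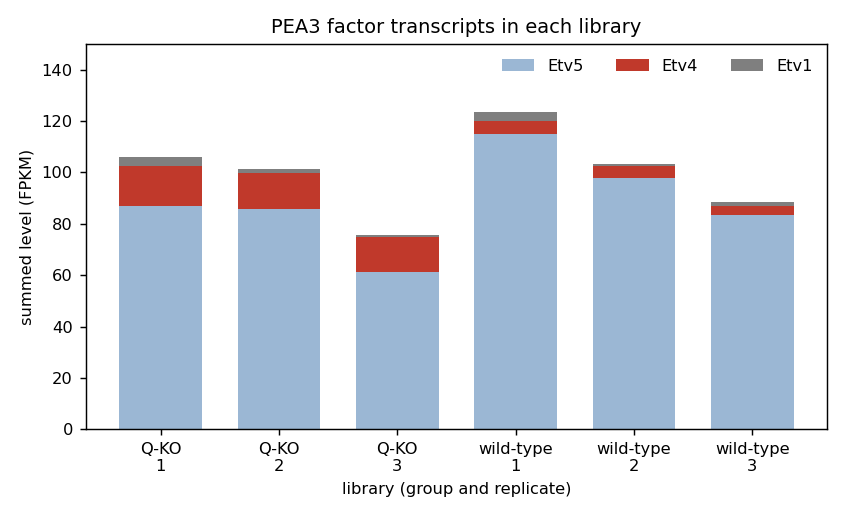
Summed FPKM of Etv5 (light blue), Etv4 (red) and Etv1 (grey) in each Q-KO library (left) and wild-type library (right). The red part takes 14.1% to 17.6% of the bar in Q-KO and 4.14% to 4.48% in wild-type libraries, while the bar heights of the groups overlap.

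The phosphatase genes Dusp6 and Dusp4 were at no more than 2.91 FPKM in any library. All libraries came from MEK-inhibited cells, so no level without the inhibitor was at hand for comparison. Dusp6, whose product dephosphorylates ERK in the cytoplasm, was at 2.91, 1.48 and 1.85 FPKM in Q-KO replicates 1, 2 and 3 and at 1.52, 1.06 and 1.44 FPKM in wild-type libraries 1, 2 and 3. Q-KO replicate 2 was below wild-type replicate 1, so the groups overlapped, and the log2 change was 0.38 (SE 0.22, 95% interval -0.13 to 0.88, limma adjusted p = 0.365). Dusp4, a nuclear phosphatase of the same family, was at 0.31, 0.203 and 0.251 FPKM in Q-KO and at 0.847, 1.73 and 0.347 FPKM in wild-type libraries 1, 2 and 3. All Q-KO values were lower than all wild-type values, though wild-type replicate 3 stood only just above. Dusp4 lies on chromosome 8, whose genes in that library lay 0.18 above their mean over the libraries (median, log2 scale). Dusp4 was under the level needed for testing. In a fit with no such minimum its log2 change was -0.59 (SE 0.25, limma adjusted p = 0.27). The ratio of Dusp6 to Dusp4 was 9.4, 7.29 and 7.38 in Q-KO libraries, against 1.79, 0.612 and 4.16 in wild-type libraries. Its mean log2 value was 2.99 ± 0.21 in Q-KO and 0.73 ± 1.39 in wild-type libraries (n = 3 each, two-sided exact permutation p = 0.1, the smallest possible). This ratio was chosen after the values were seen, when Dusp4 already separated the groups, so its p is no independent evidence.

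Among the Sprouty genes, Spry2 was the main transcript, with 83.5% to 85.5% of the summed Spry1, Spry2 and Spry4 level in Q-KO and 76% to 89.9% in wild-type libraries. Spry2 was at 28.4, 23.1 and 17.9 FPKM in Q-KO replicates 1, 2 and 3, against 18.2, 12.2 and 11.9 FPKM in wild-type libraries 1, 2 and 3. The groups overlapped only through Q-KO replicate 3 and wild-type replicate 1. Its log2 change of 0.68 (SE 0.22, 95% interval 0.17 to 1.18) did not pass over all genes (limma adjusted p = 0.128), and was 0.42 without Q-KO replicate 1 and wild-type replicate 3. Spry1, whose product has the same role, was at 4.04, 4.52 and 3.02 FPKM in Q-KO and at 2.83, 3.84 and 1.08 FPKM in wild-type libraries 1, 2 and 3. Its log2 change was 0.51 (SE 0.31, adjusted p = 0.383 from limma). With a term for libraries with Y-linked transcripts, which sets the Q-KO libraries against wild-type replicate 3 alone, the log2 change of Spry1 was 1.21 (limma adjusted p = 0.0339). That p assumes that the lone library varies like the others. Without wild-type replicate 3 the change was 0.16. The value of Spry1 thus depended on wild-type replicate 3, the lowest library for it.

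Spry4, another Sprouty gene and a widely used readout of FGF signalling, stood near 0 in most libraries. It was at 0.797 FPKM in Q-KO replicate 1, 0.0587 in replicate 2 and 0.0312 in replicate 3, against 0.0438, 0.0168 and 0.254 FPKM in wild-type libraries 1, 2 and 3. Q-KO replicate 1 alone lifted the mean of its group, and Spry4 was below the level needed for testing. Q-KO replicate 1 was also the highest of the 3 Q-KO libraries for 9 of the 10 genes, Spry1 being the exception, whereas 25.8% of all genes tested were highest there among Q-KO libraries. Q-KO replicate 3 was the lowest of the 3 for 8 of the 10 genes, against 40.7% of all genes tested. The excess of Q-KO replicate 1 over the mean of the other Q-KO libraries was 4.15 for Spry4, 1.66 for Etv1, 0.8 for Dusp6 and 0.18 for Etv4 on the log2 scale of FPKM.

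Some early genes and fibroblast transcripts were also highest in Q-KO replicate 1. Of the 16 listed ERK-induced outputs, 12 were highest there among Q-KO libraries, beside 25.8% of all genes tested. The 2 shares differ in footing, since only 13 of the 16 reached the level needed for testing. Ier3 and Maff, for example, were highest in Q-KO replicate 3. Egr1, an early transcription factor gene induced by ERK, was at 14.8 FPKM in Q-KO replicate 1 and 0.198 and 0.222 FPKM in the other Q-KO libraries, against 0.067, 0.0662 and 0.144 FPKM in wild-type libraries. Fos, a partner in the AP-1 factor, was at 4.42 FPKM in Q-KO replicate 1 and at 0.421 to 0.955 FPKM in the other libraries of both groups. Myc was at 3.72 FPKM there and at 0.212 to 1.09 FPKM elsewhere. These 3 were named after their values were seen. Summed over the 6 fibroblast markers other than Fn1 and Thy1, which every library expressed and which were set aside after the values were seen, the level was 5.11 FPKM in Q-KO replicate 1 and 0.123 and 0.165 FPKM in Q-KO replicates 2 and 3, against 0.125 to 0.247 FPKM in wild-type libraries. Col1a1, a collagen of fibroblasts, was at 1.86 FPKM in Q-KO replicate 1, and Dcn, another defining marker, was at 0.272 FPKM there and listed at 0 in Q-KO replicate 2 and the 3 wild-type libraries. The 2 markers set aside did not follow this pattern. Thy1 was at 1.36, 0.828 and 0.819 FPKM in Q-KO and at 1.42, 1.83 and 2.75 FPKM in wild-type libraries 1, 2 and 3. Fn1 was at 225, 258 and 143 FPKM in Q-KO and at 148, 135 and 148 FPKM in wild-type libraries 1, 2 and 3. Summed over all 8 fibroblast markers, mostly Fn1, the level was 231, 259 and 144 FPKM in Q-KO and 150, 137 and 151 FPKM in wild-type libraries. The part of fibroblast RNA in the values of Spry4, Etv1 and Dusp6 was not tested, and in bulk RNA fewer cells of a type and less RNA per cell cannot be told apart. Etv4 had a log2 change of 1.43 without this library (limma adjusted p = 0.0321).

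**Figure D3:**
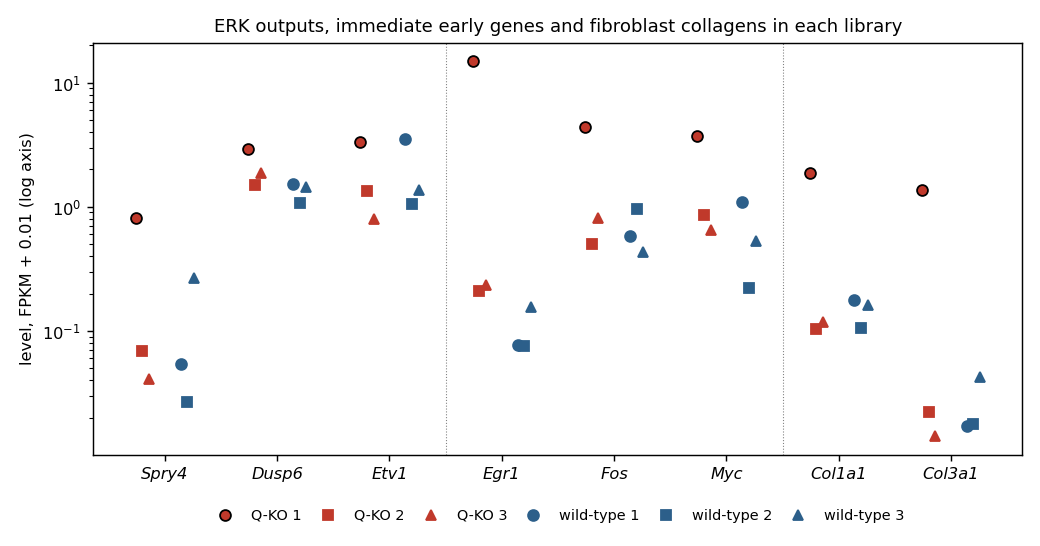
FPKM + 0.01 on a log axis for Spry4, Dusp6 and Etv1, for the early genes Egr1, Fos and Myc, and for the collagens Col1a1 and Col3a1, in Q-KO (red, left of each pair) and wild-type libraries (blue, right). Q-KO replicate 1, outlined in black, is the highest library for all but Etv1, with Egr1 at 14.8 FPKM, against 0.222 FPKM or less in every other library.

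The SPRED genes showed no difference beyond the spread of the libraries. Spred1, a RAS-pathway inhibitor that recruits neurofibromin, was at 6.09, 4.77 and 3.36 FPKM in Q-KO and at 2.89, 4.45 and 4.17 FPKM in wild-type libraries 1, 2 and 3 (log2 change 0.23, SE 0.23, 95% interval -0.29 to 0.75, limma adjusted p = 0.593). Spred2 was at 10, 9.83 and 4.72 FPKM in Q-KO and at 7.39, 9.14 and 11.1 FPKM in wild-type libraries 1, 2 and 3. Its log2 change was -0.2 (SE 0.28, 95% interval -0.83 to 0.44, limma adjusted p = 0.726), and 0.12 without Q-KO replicate 3, the lowest library. Spred2 also lies on chromosome 11, and with chromosome medians removed its change was -0.22. These intervals leave room for changes in either direction.

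In order of level, the genes ran Etv5, Spry2, Etv4, Spred2, Spred1, Spry1, Dusp6, Etv1, Spry4 and Dusp4 in Q-KO cells. In wild-type cells the order was Etv5, Spry2, Spred2, Etv4, Spred1, Spry1, Etv1, Dusp6, Dusp4 and Spry4. Etv5 and Spry2 were set apart from their lower neighbours in both groups. Etv4 came above Spred2 in Q-KO cells, with all libraries above those of Spred2 (13.3 to 15.5 against 4.72 to 10 FPKM). In wild-type cells Etv4 came after Spred2, with all libraries below those of Spred2 (3.75 to 5.12 against 7.39 to 11.1 FPKM). From Spred1 downward, neighbours overlapped, apart from Spry1 over Dusp6 in Q-KO and Dusp4 over Spry4 in wild-type cells.

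Other genes of the pathway were read from 5 lists, whose 80 genes included 62 that were tested. Of these, 5 rose and 1 fell, which is 9.68% of the 62 beside 4.06% of all genes. This share is a description, since the lists were chosen with earlier results known, 1 of the rises (Spred3) reached the minimum level through the Q-KO libraries alone, and the fall was that of Ccnd1, a targeted gene. Their median log2 change was 0.12, against 0.07 over all genes. Of the ligands, receptors and adaptors, 0 of 9 tested genes passed limma's test. An unadjusted p under 0.05 was found for 1 of them, and for 2493 of the 11573 genes tested. Fgf4, the ligand that ES cells make, was at 86.3, 106 and 118 FPKM in Q-KO and at 94.3, 94.3 and 85.5 FPKM in wild-type libraries 1, 2 and 3, without a difference beyond the spread (limma adjusted p = 0.555).

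Of the 16 tested genes of the RAS-RAF-MEK-ERK cascade, 1 rose. This was Eras, an X-linked RAS gene of ES cells whose product acts on PI3 kinase, at 8.31, 7.75 and 13.2 FPKM in Q-KO libraries, against 1.91, 2.07 and 1.61 FPKM in wild-type ones. It rose by 1.88 (SE 0.21, limma adjusted p = 0.00681) and passed in all 17 alternatives run.

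Of the other 12 tested negative regulators, 2 rose. Spred3, the remaining SPRED gene, was at 1.81, 1.7 and 1.41 FPKM in Q-KO and 0.472, 0.361 and 0.567 FPKM in wild-type libraries 1, 2 and 3. It rose by 0.85 (limma adjusted p = 0.0434). Its call was lost in 11 of 16 alternatives, including median-of-ratios scaling (adjusted p = 0.0537), quantile normalization (0.136) and leaving out any 1 library but wild-type replicate 3 (0.0662 to 0.185). Erf, an ETS-family repressor that ERK inactivates, rose by 0.72, at 30.5 ± 3.63 FPKM in Q-KO and 18.2 ± 2.88 FPKM in wild-type libraries (SD, n = 3 each). Its call sat at the threshold (limma adjusted p = 0.0499) and was kept in 2 of 17 alternatives, not on leaving out any 1 library (adjusted p 0.0784 to 0.24). The most abundant, Klhl13, was at 41.9 to 45.2 FPKM in Q-KO and 33.5 to 62.9 FPKM in wild-type libraries (limma adjusted p = 0.957). Dusp9, an X-linked ERK phosphatase chosen with its values known, stood at 17.2, 25.8 and 24.8 FPKM in Q-KO libraries, which all had Y-linked transcripts. It was at 12.5 and 26.5 FPKM in wild-type libraries 1 and 2 (limma adjusted p = 0.366). In wild-type replicate 3, the only wild-type library with Y-linked transcripts, it was at 2.36 FPKM.

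Among the other ERK-induced outputs, 1 of 13 rose and 1 fell. Hmga2, a chromatin protein gene, was at 26.8, 18 and 12.8 FPKM in Q-KO and 5.72, 9.14 and 4.81 FPKM in wild-type libraries 1, 2 and 3. Its rise of 1.4 (limma adjusted p = 0.0412) was lost in 9 of 17 alternatives, among them median-of-ratios scaling and quantile normalization (adjusted p = 0.0551 and 0.0533) and the fits without any 1 library but wild-type replicate 2 (0.0594 to 0.187). Ccnd1, cyclin D1, fell by 1.61 (limma adjusted p = 0.0124), and is itself one of the genes that the genotype label names as lost. Its call was lost without Q-KO replicate 2, Q-KO replicate 3 or wild-type replicate 1 (adjusted p 0.06 to 0.0846). Ier2, the most abundant output, was at 58.1, 46 and 52 FPKM in Q-KO and 37.5, 34.2 and 31.3 FPKM in wild-type replicates. Its groups did not overlap, but its log2 change of 0.58 did not pass (limma adjusted p = 0.0611).

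Of 12 other ETS factors tested, 1 rose. Elf1 was at 10.7, 10.1 and 6.77 FPKM in Q-KO and 2.71, 2.91 and 4.46 FPKM in wild-type libraries 1, 2 and 3, and rose by 1.22 (SE 0.22, limma adjusted p = 0.0266). Its call was lost in 8 of 17 alternatives, 5 of them leaving out 1 library, which could be any but wild-type replicate 3 (adjusted p 0.0535 to 0.163). Elf3, an epithelial ETS factor and the most abundant of the list, was at 56.2, 81.8 and 64.3 FPKM in Q-KO and 49.5, 52.7 and 26.8 FPKM in wild-type libraries (limma adjusted p = 0.19).

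**Figure D4:**
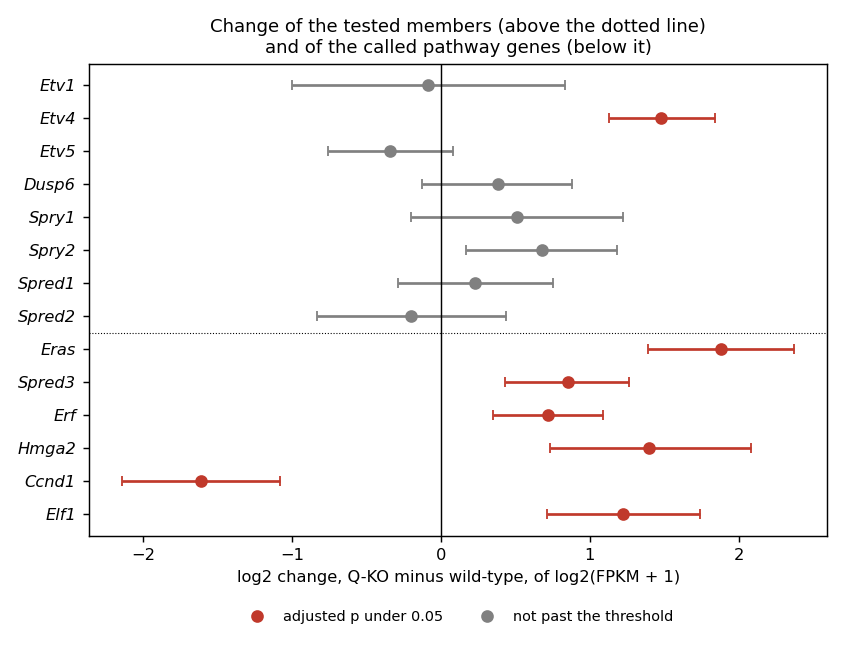
Log2 change of log2(FPKM + 1), Q-KO minus wild-type, with 95% interval from limma, for the 8 tested members (above the dotted line) and the 6 called pathway genes (below it). Red marks an adjusted p under 0.05 over all genes. Among the members only Etv4 is red, at 1.48, while Eras lies furthest to the right at 1.88 and Ccnd1 furthest to the left at -1.61.

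The genes whose pattern over the 6 libraries was most like the mean standardized profile of the 8 tested members were Map1a (Pearson's r = 0.986), Zfp933 (0.98), Wdr44 (0.98), Cul3 (0.972) and Ppp2r2a (0.969). The likeness is a description of 6 libraries chosen from 11573 genes. The profile was 1.01 in Q-KO replicate 1, 0.35 in replicate 2 and -0.53 in replicate 3, against -0.02, -0.28 and -0.53 in wild-type replicates 1, 2 and 3. The Q-KO libraries thus ranged more widely on it than the wild-type libraries, and the groups overlapped. The members differed in how closely they followed the profile, with r of 0.858 for Spry2 and 0.267 for Etv5. Each member is itself part of the profile, which raises its r.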

How the data were processed

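RNA-seq was measured in 3 Q-KO and 3 wild-type libraries, grouped by genotype label and numbered by title. The authors deposited FPKM values per gene symbol. Build mm9, Cufflinks, STAR 2.5, bcl2fastq 2.16 and CASAVA are listed, per the submitters' processing notes, with no role or order. For annotation, strand setting and depth, the sources used here state nothing. Cufflinks FPKM is an estimate and a listed 0 can be a failed one. A stray header row was dropped.

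Values were analysed as log2(FPKM + 1) for genes averaging 1 FPKM or more, with limma 3.58.1 in R 4.3.3 (eBayes with an intensity trend, two-sided), Benjamini-Hochberg adjustment over 11573 genes and a threshold of 0.05. This scale understates changes of low genes. A gene high in 1 group can pass the minimum through that group alone. Separate cultures are not stated, so p-values reflect the spread of these samples only, and that spread may be technical. Chromosomes came from RefSeq (GRCm38.p6) by symbol, for 10916 of the genes tested, with no coordinates carried over to mm9. Named are the 10 members, up to 4 called genes and the most abundant gene of each of 5 pathway lists, and the 5 genes most like the members. The result of 1 gene under this rule is not reported here. Members and lists were chosen with earlier results of these data known. Alternatives were a pseudocount of 0.1, no minimum, a minimum of 5 FPKM, 2 other scalings, no trend, a robust fit, a replicate block, a Y-linked term, removal of chromosome medians and leaving out libraries. Over all genes tested, same-numbered libraries did not deviate together (r of -0.03, 0.01 and 0.02 for numbers 1, 2 and 3), so no pairing was used. This does not exclude pairing for single genes, and Etv4, Etv5 and Spry2 were each highest in replicate 1 and lowest in replicate 3 of both groups.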

Additional observations from a re-analysis of the deposited data

How the results depend on the processing

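The call of Etv4 was kept in 16 of 17 alternatives, with changes of 1.33 to 1.69, and was lost without Q-KO replicate 2. Of the 8 tested members, 6 passed in none of their alternatives. With the Y-linked term the number of members past the threshold was 2, Etv4 and Spry1, in a contrast whose wild-type arm is 1 library, and leaving out 1 library gave 0 to 1. Genes called over all genes, 470 as reported, numbered 266 with a mean of at least 5 FPKM, where fewer genes were tested, and 894 with the Y-linked term, and 28 to 566 on leaving out a library (187, 28 and 85 when the library left out was Q-KO replicate 1, 2 or 3, and 94 when it was wild-type replicate 1). Pathway genes called numbered 3, in place of 6, with no minimum, with median-of-ratios scaling, with quantile normalization and with the replicate block, and 1 to 4 on leaving out a library. The replicate block changed no call among the members and gave 333 genes over all. With it the SE was smaller for some members, 0.2 for Etv1 and 0.15 for Spry2 (limma adjusted p = 0.0736). It was slightly larger for Etv4, Spred1 and Spred2, at 0.16, 0.25 and 0.29. Without Q-KO replicate 1 and wild-type replicate 3 together, Etv1 kept its sign, at -0.58. Signs turned in other alternatives for uncalled genes: Etv1 was at 0.16 with the Y-linked term and at -0.45 to 0.26 on leaving out a library, and Spred2 at -0.36 to 0.12. Klhl13 was at -0.06 with median-of-ratios scaling, -0.02 with quantile normalization, -0.08 with chromosome medians removed, -0.17 without Q-KO replicate 1 and wild-type replicate 3, and -0.15 to 0.3 on leaving out 1 library. The cause was not tested. With 3 libraries a group and unknown depth, small changes of genes near 1 FPKM, such as Dusp6 and Etv1, were hard to detect, and Dusp4 and Spry4 could only be described.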
